A study of Homo sapiens with 4 samples.

Results

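The genes of mitosis were examined in VCaP, a human prostate cancer cell line, after transfection with an siRNA against ZBTB7A (siZBTB7A) or with a non-targeting control siRNA (siNTC). A list of 40 genes of mitotic entry, the spindle, the kinetochore and cytokinesis was chosen by name, and all 40 were matched by symbol to 1 Ensembl gene each, out of 60308 gene identifiers. Both groups were grown in DMEM with serum, and ZBTB7A encodes a zinc finger transcriptional repressor. RNA-seq counts were available as 2 tables per group, numbered 1 and 2, from libraries of stranded total RNA. The labels do not say that the 2 tables of a group came from separate cultures or transfections, and VCaP is a single line of established cells.

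Cells enter mitosis when CDK1 bound to its cyclins becomes active, and leave it when the anaphase-promoting complex (APC/C), a ubiquitin ligase, marks cyclin B and securin for destruction. Between these steps, kinetochores attach chromosomes to spindle microtubules while checkpoint kinases hold the APC/C back. Most of the genes involved are transcribed late in the cell cycle. Their promoters are known for CCAAT boxes and for the cell cycle genes homology region (CHR), an element bound by the DREAM and MuvB complexes. MYBL2 and FOXM1, which join MuvB, encode activators of these promoters.

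The promoters of the listed genes held these elements more often than promoters in general. The elements were searched because promoters of mitosis genes are known for them. The counts therefore describe the list and are not independent evidence about it. Windows of 300 bases, from 250 before to 50 after each gene start, were taken from RefSeq (GRCh38.p14) and searched on both strands. They were found for 34 of the 40 genes, and not for AURKA, BIRC5, FOXM1, TPX2, TTK and UBE2C. The CHR was searched in 2 forms. The form TTTGAA was found in 24 windows and the form TTTAAA in 13 windows. Either occurred in 29 of these 34 windows, against 24.26% of 27305 windows of all genes. CCAAT occurred in 24 of 34, against 35.7% of all windows, and both kinds of motif together in 21 of 34, against 9.49%. In 20 of 34 the CHR letters began within the last 50 bases before the gene start, as they did in 4.87% of all windows. That stretch was picked after the positions had been seen. A match is a run of letters and not a shown binding site.

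Promoters of 5 genes follow, 5′ to 3′ in the direction of transcription, with the CCAAT and CHR letters, on either strand, in capitals. The first 3 belong to genes that were lower in the siZBTB7A library, CCNB1 carries the same elements without having passed the test, and MYBL2 holds none of these letters. The windows lie at chr10:92592880-92593179 on the plus strand (KIF11), chr5:138178862-138179161 on the plus strand (KIF20A), chr17:40417847-40418146 on the minus strand (TOP2A), chr5:69166900-69167199 on the plus strand (CCNB1) and chr20:43666864-43667163 on the plus strand (MYBL2).
KIF11: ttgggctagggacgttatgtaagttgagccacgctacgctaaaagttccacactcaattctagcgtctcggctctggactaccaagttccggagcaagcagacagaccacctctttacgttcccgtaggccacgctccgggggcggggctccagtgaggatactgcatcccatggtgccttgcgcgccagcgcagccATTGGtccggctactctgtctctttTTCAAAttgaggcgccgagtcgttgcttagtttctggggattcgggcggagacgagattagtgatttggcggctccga
KIF20A: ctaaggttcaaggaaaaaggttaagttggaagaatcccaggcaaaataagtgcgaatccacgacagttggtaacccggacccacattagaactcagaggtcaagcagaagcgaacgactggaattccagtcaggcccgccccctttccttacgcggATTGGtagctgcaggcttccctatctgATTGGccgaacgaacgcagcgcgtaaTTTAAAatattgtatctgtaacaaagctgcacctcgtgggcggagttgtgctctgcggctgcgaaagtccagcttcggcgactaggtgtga
TOP2A: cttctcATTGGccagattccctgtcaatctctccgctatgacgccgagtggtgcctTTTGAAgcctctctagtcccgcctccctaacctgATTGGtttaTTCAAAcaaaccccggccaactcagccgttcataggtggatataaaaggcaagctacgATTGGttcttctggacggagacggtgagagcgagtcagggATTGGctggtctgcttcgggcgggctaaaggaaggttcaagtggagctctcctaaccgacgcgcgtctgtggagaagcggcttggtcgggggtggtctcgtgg
CCNB1: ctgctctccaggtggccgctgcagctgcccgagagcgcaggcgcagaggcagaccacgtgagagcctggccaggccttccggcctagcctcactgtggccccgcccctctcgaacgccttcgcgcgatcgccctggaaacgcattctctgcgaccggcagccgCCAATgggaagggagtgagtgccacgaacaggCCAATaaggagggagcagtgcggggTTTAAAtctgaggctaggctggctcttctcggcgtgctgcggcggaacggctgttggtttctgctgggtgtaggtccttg
MYBL2: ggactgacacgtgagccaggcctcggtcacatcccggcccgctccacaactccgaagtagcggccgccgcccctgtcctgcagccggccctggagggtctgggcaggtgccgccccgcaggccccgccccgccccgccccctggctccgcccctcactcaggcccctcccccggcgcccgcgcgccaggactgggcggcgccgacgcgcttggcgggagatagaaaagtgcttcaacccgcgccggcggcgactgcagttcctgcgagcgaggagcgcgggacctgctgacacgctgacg
In KIF11 an inverted CCAAT box began at window position 198 and the CHR letters at 223. In KIF20A and CCNB1 the CHR letters began at positions 210 and 221.

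The 4 count tables were similar in depth. Reads in genes numbered 5556061 and 5745862 in the siZBTB7A tables and 5737738 and 5927656 in the siNTC tables. Within a group the tables differed by no more than read sampling (chi-square per degree of freedom 0.995 in siZBTB7A and 0.993 in siNTC, over 12645 and 12762 genes with at least 20 summed reads). Between groups it was 3.50 to 3.64. Over the 40 mitosis genes alone it was 0.952 within siZBTB7A and 1.34 within siNTC, and 2.07 to 2.78 between groups. The 2 tables of a group were therefore counted as 1 sample. Each comparison below is between 2 libraries without a replicate check, and its p-values measure counting error and not the spread between cultures. Where the tables of the groups do not overlap, that likewise shows counting precision and not agreement between cultures. A gene is called higher or lower where edgeR's quasi-likelihood test gave a Benjamini-Hochberg adjusted p under 0.05 over all 12848 genes tested. Folds are siZBTB7A over siNTC from the summed tables, with exact 95% intervals for counting error. Levels are in CPM, gene counts scaled to the TMM-adjusted total of each table. PCR copies are not marked in these counts, so the intervals may be too narrow.

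ZBTB7A had 70 and 74 reads in the siZBTB7A tables, against 90 and 115 in the siNTC tables. Its fold was 0.743 (0.596 to 0.924), and it did not pass the test (edgeR adjusted p = 0.0969). Leaving out the second siNTC table gave a log2 fold of -0.26 and leaving out the first gave -0.57, against -0.43 with all tables. The library labelled siZBTB7A is thus named by its label throughout. Luminal prostate markers were abundant, with 10 of 10 tested, summing to 6667 CPM in siZBTB7A and 6394 CPM in siNTC. Of these 10, 4 were called higher and 0 lower, against 2.25% and 2.72% of all tested genes. Of 8 fibroblast markers, 2 had no read, and LUM held 144 of 162 reads in siZBTB7A and 178 of 204 in siNTC. The 7 matched leukocyte and endothelial markers had 32 reads in siZBTB7A and 22 in siNTC, and 4 of them had none. Mitochondrial genes took 20.2% of gene reads in siZBTB7A and 17.1% in siNTC. The part of these differences in the results below was not tested.

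The mitosis genes were slightly lower as a group in the siZBTB7A library. Together they took 4722 and 4770 CPM in the siZBTB7A tables, against 5034 and 5042 CPM in the siNTC tables. Both siZBTB7A tables lay below both siNTC tables. The summed fold was 0.942 (0.931 to 0.953). Without TOP2A, the most abundant of the 40, it was 0.951 (0.939 to 0.963), and without TOP2A, CENPF, MKI67 and SMC4 it was 0.964 (0.951 to 0.978). In RNA from whole cultures, fewer cells in mitosis and less of these RNAs per cell cannot be told apart.

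All 40 passed the filter on low counts, with 451 to 15647 summed reads each. Of the 40, 7 were called lower (KIF11, SMC4, CENPF, TOP2A, ASPM, MKI67 and KIF20A) and 1 was called higher (FOXM1). By DESeq2, which gave 28 of the 40 no adjusted p, TOP2A alone passed, at an adjusted p of 0.000256. SMC4, CENPF, ASPM, KIF20A and MKI67 did not (DESeq2 adjusted p = 0.05002, 0.0583, 0.101, 0.191 and 0.255), at log2 folds of -0.20, -0.18, -0.17, -0.13 and -0.16 that equal those of edgeR when rounded alike. DESeq2 gave KIF11 and FOXM1 no adjusted p. Over all tested genes, 2.72% were called lower and 2.25% higher. Of 6784 other protein-coding genes within the CPM range of the 40, 254 were called lower and 207 higher, or 6.80% in either direction. The fold lay below 1 in 29 of 40 (72.5%), where 49.8% of all tested genes lay below 1. The median fold was 0.958, against 1.001 over all tested genes. By size alone, 10 of 40 were at least 1.1-fold lower and 1 was at least 1.1-fold higher. These counts stand beside 21.9% and 22.2% of all tested genes, many of which have few reads. A count of 10 in 40 is near the first of these shares. Among 6784 protein-coding genes within the CPM range of the 40, 13.9% were that much lower and 14.0% that much higher. In 19 of 40 both siZBTB7A tables were below both siNTC tables, and in 7 they were above, against 23.4% and 23.5% of all tested genes. The spread of well-measured genes was taken from 5373 protein-coding genes with at least 30 CPM, whose middle 95% of folds lay between 0.841 and 1.19. Of the 37 mitosis genes at that level, only KIF11 lay outside this range.

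**Figure D1:**
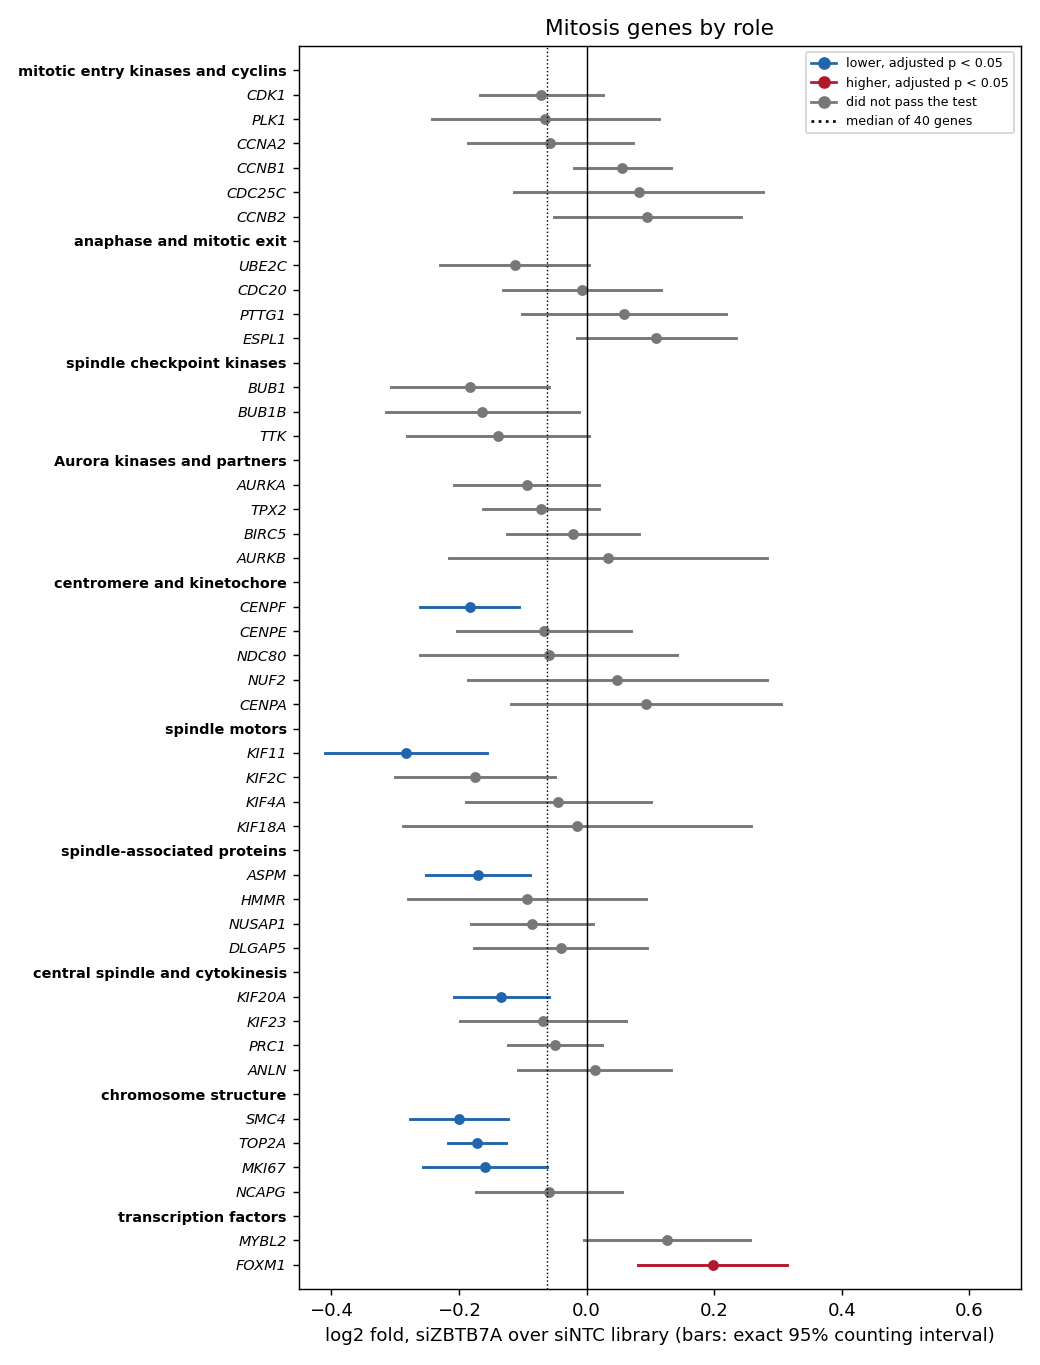
Log2 fold (siZBTB7A over siNTC library, x axis) of the 40 mitosis genes by role, with exact 95% intervals for counting error and a dotted line at their median. Points are coloured by the edgeR call; 7 are called lower and FOXM1 alone is called higher.

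Genes of chromosome structure held the most calls, with 3 of 4 lower and a median fold of 0.892. TOP2A, which encodes the topoisomerase that untangles sister chromatids, stood at 645 and 639 CPM in the siZBTB7A tables, against 730 and 717 CPM in the siNTC tables. The groups did not overlap, and its fold of 0.888 (0.860 to 0.916) passed the test (edgeR adjusted p = 1.17e-08). SMC4, a core ATPase of both condensins, had 226 and 228 CPM in siZBTB7A, against 246 and 275 CPM in siNTC. The siNTC tables lay apart from each other, but both were above siZBTB7A. Its fold was 0.871 (0.826 to 0.918; edgeR adjusted p = 0.000129). MKI67, the proliferation antigen that coats mitotic chromosomes, had 144 and 143 CPM in siZBTB7A, against 167 and 153 CPM in siNTC. It fell to 0.895 of the control level (0.837 to 0.958; edgeR adjusted p = 0.0311). NCAPG, a subunit of condensin I alone, was at 0.960 (0.887 to 1.04) and did not pass.

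Spindle motors all had folds below 1, with 1 of 4 called. KIF11, the kinesin that pushes spindle poles apart, had 82.7 and 78.2 CPM in the siZBTB7A tables, against 96.8 and 98.8 CPM in the siNTC tables. Both siZBTB7A tables were lower, and its fold of 0.822 (0.752 to 0.898) was the lowest of the 40 (edgeR adjusted p = 0.00124). KIF2C, a microtubule depolymerase at centromeres, was at 0.886 (0.812 to 0.967), with an edgeR p of 0.00699 before adjustment and 0.0955 after. KIF4A, a chromokinesin, and KIF18A, which dampens chromosome movements, stood at 0.970 and 0.990.

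Of the spindle-associated proteins, 1 of 4 was called. ASPM, which focuses microtubules at spindle poles, had 199.5 and 205 CPM in siZBTB7A, against 225 and 230.1 CPM in siNTC. The groups did not overlap, at a fold of 0.889 (0.840 to 0.941; edgeR adjusted p = 0.00234). HMMR, DLGAP5 and NUSAP1, which bind or bundle spindle microtubules, had folds of 0.937, 0.972 and 0.943, and none of the 3 passed the test.

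At the kinetochore, 1 of 5 genes was called. CENPF, a large protein of the outer kinetochore, had 231 and 217 CPM in siZBTB7A, against 251 and 257 CPM in siNTC. Its fold was 0.881 (0.835 to 0.929; edgeR adjusted p = 0.000392). CENPE, the kinetochore kinesin, was at 0.955 (0.869 to 1.05). NDC80 and NUF2, which form the microtubule-binding arm of the NDC80 complex together, were at 0.960 and 1.03. CENPA, the histone H3 variant of centromeres, was at 1.07 (0.921 to 1.24). None of these other 4 passed the test.

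The 3 spindle checkpoint kinases all had folds below 1, and none was called. BUB1, which recruits checkpoint proteins to kinetochores, had 85.0 and 89.2 CPM in siZBTB7A, against 97.5 and 100.3 CPM in siNTC. Its fold was 0.881 (0.808 to 0.960) and the adjusted p in edgeR 0.0619. BUB1B, which encodes the BUBR1 component of the mitotic checkpoint complex, was at 0.893 (0.804 to 0.991). TTK, which phosphorylates kinetochore scaffolds at the start of checkpoint signalling, was at 0.908 (0.823 to 1.003). These folds moved with single tables. The log2 fold of BUB1B was -0.16 with all tables, -0.07 without the second and -0.25 without the first siNTC table, -0.08 without the second and -0.24 without the first siZBTB7A table. That of TTK was -0.14 with all tables, -0.21 without the second and -0.07 without the first siNTC table, -0.21 without the second and -0.07 without the first siZBTB7A table.

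In the genes of cytokinesis, 1 of 4 was called. KIF20A, a kinesin of the central spindle, had 243 and 248 CPM in siZBTB7A, against 273 and 266 CPM in siNTC. The groups did not overlap, and the fold was 0.911 (0.866 to 0.960; edgeR adjusted p = 0.0135). KIF23 and PRC1, which bundle microtubules of the central spindle, were at 0.954 and 0.966. ANLN, which encodes the contractile ring scaffold anillin, was at 1.009 (0.928 to 1.097).

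**Figure D2:**
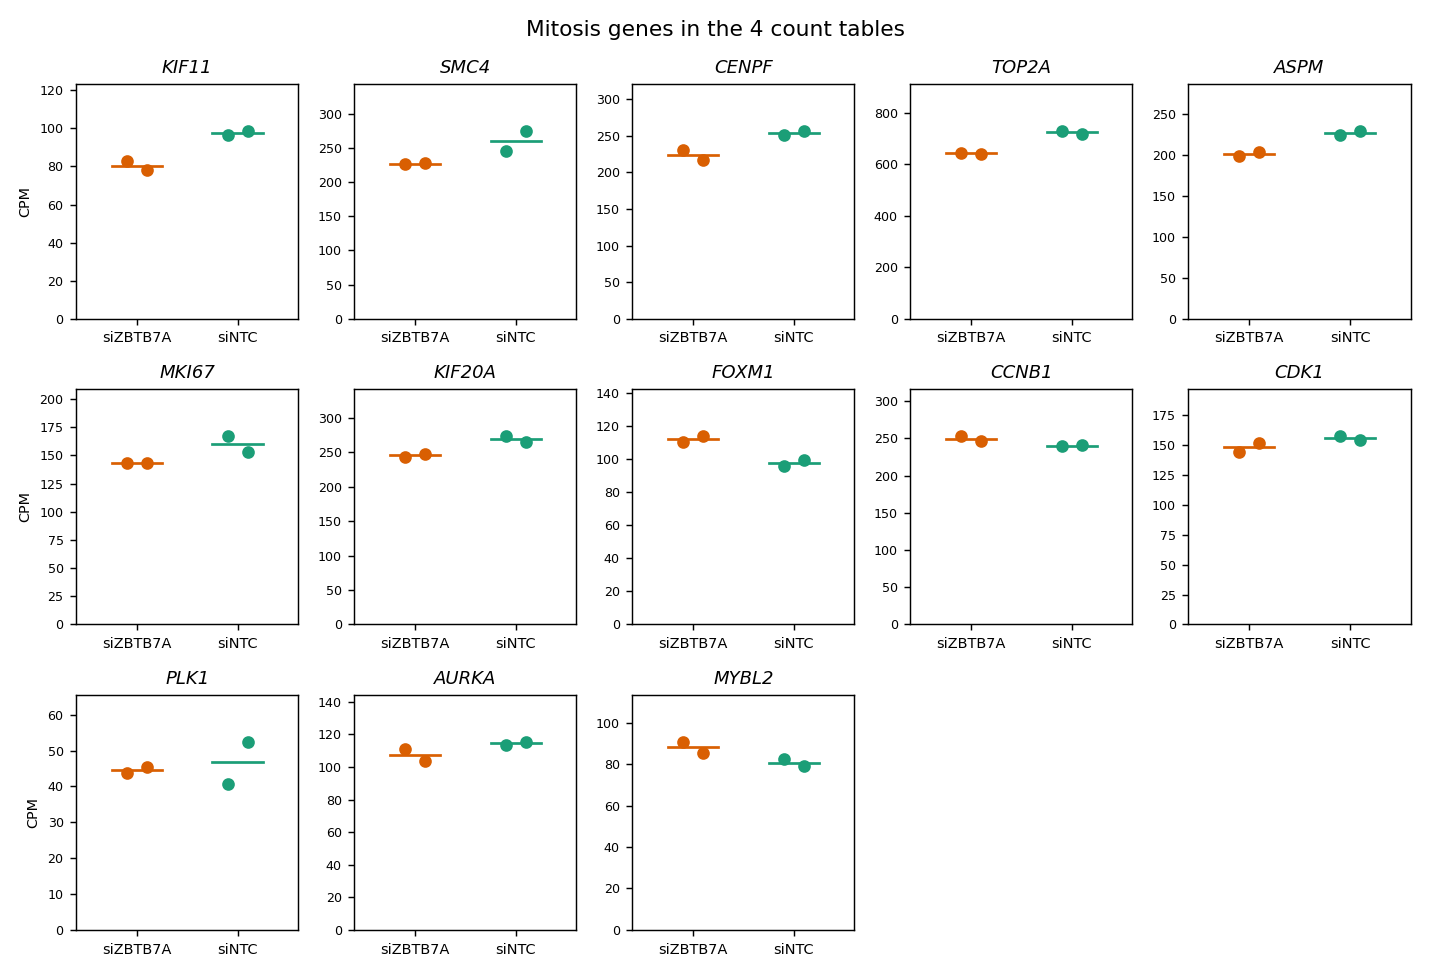
CPM (y axis, from 0) in each siZBTB7A and siNTC count table for the 8 called mitosis genes and for CCNB1, CDK1, PLK1, AURKA and MYBL2. Points are tables and lines the value of the summed tables; in KIF11 the siZBTB7A tables stand at 82.7 and 78.2, below both siNTC tables.

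The core regulators of mitotic entry showed no common direction, and 0 of 6 were called by edgeR. At an unadjusted p under 0.05, 0 of the 6 passed as well. CCNB1, which encodes cyclin B1, had 253 and 247 CPM in siZBTB7A, against 239 and 241 CPM in siNTC. It was at 1.04 (0.986 to 1.096) with no overlap between the groups, and CCNB2, for cyclin B2, was at 1.07 (0.965 to 1.18). CDK1, their catalytic partner, had 145 and 152 CPM in siZBTB7A, against 158 and 154 CPM in siNTC. Its fold was 0.952 (0.890 to 1.02). CCNA2, which encodes cyclin A2, stood at 0.961, and CDC25C, a phosphatase that activates CDK1, at 1.06. PLK1, the polo-like kinase, had 43.9 and 45.5 CPM in siZBTB7A, against 40.8 and 52.5 CPM in siNTC. The siZBTB7A values lay between those of siNTC, and its fold of 0.956 (0.845 to 1.08) turned to a log2 fold of 0.13 without the second siNTC table.

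Genes of anaphase and mitotic exit were likewise mixed, with none (0 of 4) called by edgeR and 0 at an unadjusted p under 0.05. CDC20, the activator of the APC/C, was at 0.995 (0.913 to 1.08). UBE2C, the APC/C's ubiquitin-conjugating enzyme, was at 0.925 (0.852 to 1.003). PTTG1, which encodes securin, was at 1.04 (0.933 to 1.16), and its count is uncertain because near-identical copies exist in the genome. ESPL1, which encodes separase, was at 1.08 (0.989 to 1.18).

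The Aurora kinases and their partners did not pass the test either (0 of 4 by edgeR, and 0 at an unadjusted p under 0.05). AURKA, the kinase of spindle poles, had 111 and 104 CPM in siZBTB7A, against 113 and 116 CPM in siNTC, a fold of 0.937 (0.866 to 1.014). TPX2, its activator on the spindle, was at 0.952 (0.894 to 1.014). AURKB, the kinase of the chromosomal passenger complex, was at 1.02 (0.861 to 1.22), and BIRC5, which encodes survivin of the same complex, at 0.985 (0.917 to 1.06).

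Both transcription factor genes had folds above 1. FOXM1 had 110 and 114 CPM in siZBTB7A, against 95.6 and 99.6 CPM in siNTC. The groups did not overlap, and the fold of 1.15 (1.06 to 1.24) passed the test (edgeR adjusted p = 0.0249). MYBL2 had 90.9 and 85.6 CPM in siZBTB7A, against 82.4 and 79.3 CPM in siNTC. Its fold of 1.09 (0.997 to 1.19) did not pass.

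The 8 calls differed in how much they depended on single tables. TOP2A passed without any 1 of the 4 tables, with log2 folds of -0.18 to -0.16. CENPF and KIF11 did not pass without the second siZBTB7A table (log2 folds -0.14 and -0.24), and SMC4 did not without the second siNTC table (log2 fold -0.11). ASPM lost its call without the second siNTC or the first siZBTB7A table (log2 fold -0.15 in both cases). KIF20A and MKI67 each passed in only 1 of the 4 leave-outs, with log2 folds of -0.15 to -0.12 and -0.22 to -0.10. KIF20A kept its call without the second siNTC table and MKI67 likewise. FOXM1 passed in 0 of 4, with log2 folds of 0.16 to 0.23. Each leave-out fits 3 tables in place of 4.

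Transcript length moved with the fold. The longest annotated transcripts of the 40 genes ranged from 914 bases (UBE2C) to 12678 bases (MKI67), with a median of 3344, against 3808 for other tested protein-coding genes. Their GC content had a median of 43.2%, against 48.0%. Across the 40 genes Spearman's correlation of log2 fold with that length was -0.46, and with GC content 0.39. These values are descriptions across genes of the same libraries, and over 11633 protein-coding genes they were -0.20 and 0.24. Protein-coding genes were split by this length into 4 groups of like size. In the group with the longest transcripts (over 5559 bases) were 6 mitosis genes, with a median fold of 0.892 and 4 called lower. The other 2901 genes of that length had a median of 0.966, and 7.03% of them were called lower. In the shortest group (up to 2477 bases) were 12 mitosis genes with a median of 1.009 and 0 called, beside a median of 1.03 in the other genes. In both groups between, the medians of mitosis genes were 0.954 and 0.960, against 1.02 and 0.998 for other genes. The median of the mitosis genes was below that of other genes in each of the 4 groups, a difference that was not tested. Among the 6 longest, ESPL1 at 6665 bases and CENPE at 8612 bases did not pass, with folds of 1.08 and 0.955.

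**Figure D3:**
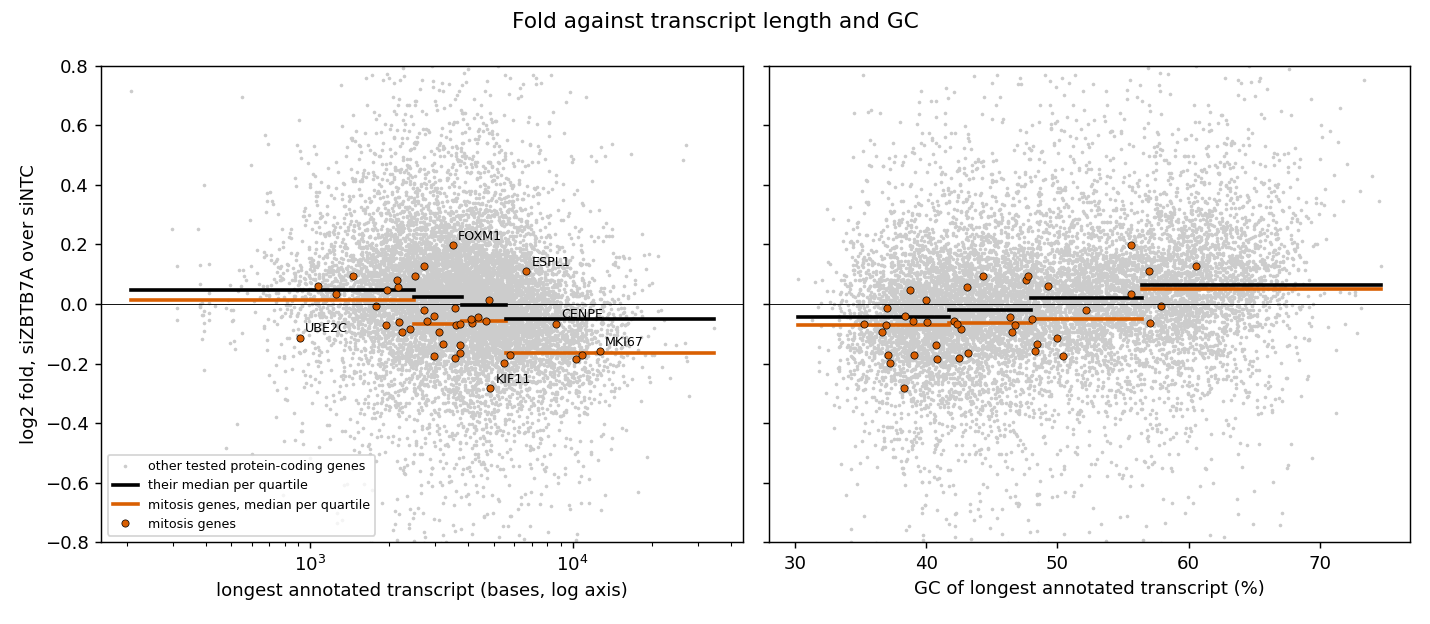
Log2 fold (y axis) against length (left, log axis) and GC content (right) of the longest annotated transcript, for mitosis genes (orange) and other tested protein-coding genes (grey; 124 lie beyond the axis). Horizontal lines are medians per quartile of all protein-coding genes; the orange line for the longest transcripts stands at a fold of 0.892 and the black one at 0.966.

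By GC content, mitosis genes had medians of 0.952, 0.958, 0.966 and 1.04 from the lowest to the highest GC group, and other genes 0.969, 0.987, 1.013 and 1.04. A correction of the folds by splines on length and GC left KIF11 at 0.846, SMC4 at 0.904, TOP2A at 0.923 and KIF20A at 0.901, and these 4 still passed (edgeR adjusted p = 0.0142, 0.0171, 0.000404 and 0.00642). CENPF moved to 0.946, ASPM to 0.964, MKI67 to 0.949 and FOXM1 to 1.12, and none of these passed any longer. MYBL2, which had not passed before, moved from 1.09 to 1.05. The corrected median of the 40 was 0.964, with 28 below 1. The median length over all annotated transcripts of a gene was also used in place of the longest. Across the 40 genes its correlation with fold was 0.16, of opposite sign. Other protein-coding genes still had their lowest median fold, 0.984, in the group with the longest median lengths. In the groups below it their medians were 1.003, 1.012 and 1.007. Mitosis genes stood at 0.917, 0.972, 1.03 and 0.954 from the shortest to the longest group.

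Other genes of cell division were compared by the same test. Of 70 further spindle, kinetochore and cytokinesis genes, 2 were called lower and 0 higher, with a median fold of 0.974 and 70.0% below 1. That is 2.86% of the list, near the 2.72% called lower over all tested genes. In each other cell-division list with a call, S phase included, 1 gene was called. That is 4.17% to 9.09% of lists of 11 to 24 genes, against 4.97% of all tested genes called in either direction. The called genes of the spindle list were CEP55, which recruits the abscission machinery, at 0.787 (0.698 to 0.888; edgeR adjusted p = 0.00562), and TACC3, which binds spindle microtubules, at 0.831 (0.741 to 0.931; edgeR adjusted p = 0.0350). CEP55 had 45.4 and 40.5 CPM in siZBTB7A, against 55.5 and 53.5 CPM in siNTC. Of 19 other condensin and cohesin genes, 18 had a fold below 1, with a median of 0.952; after the correction for length and GC, 15 were below 1 and the median was 0.975. The 1 called was NCAPD3, a subunit of condensin II, at 0.890 (0.829 to 0.956; edgeR adjusted p = 0.0325). Of 16 genes of the APC/C and its partners, CDC27, a core subunit, was called lower at 0.841 (0.779 to 0.908; edgeR adjusted p = 0.000901), and the median was 0.988.

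Of 29 centrosome genes, 0 were called by edgeR and the median was 0.973; at an unadjusted p under 0.05, CDK5RAP2 alone passed, a gene picked out after its values were seen. Of 11 DREAM and MuvB genes, TFDP1, the partner of E2F factors, was called higher at 1.22 (1.07 to 1.39; edgeR adjusted p = 0.0478), and the median was 1.002. Genes of S phase, which precedes mitosis, had a median of 0.997 over 24. Of these, E2F1 alone was called, at 1.23 (1.12 to 1.36; edgeR adjusted p = 0.00223), with 82.1 and 76.6 CPM in siZBTB7A, against 65.5 and 63.0 CPM in siNTC. The S-phase genes summed to 2151 CPM in siZBTB7A and 2168 CPM in siNTC. With the correction for length and GC, NCAPD3, TFDP1 and E2F1 no longer passed, at corrected folds of 0.897, 1.21 and 1.17, while CEP55, TACC3 and CDC27 did. Whether the lists differ from one another was not tested.

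**Figure D4:**
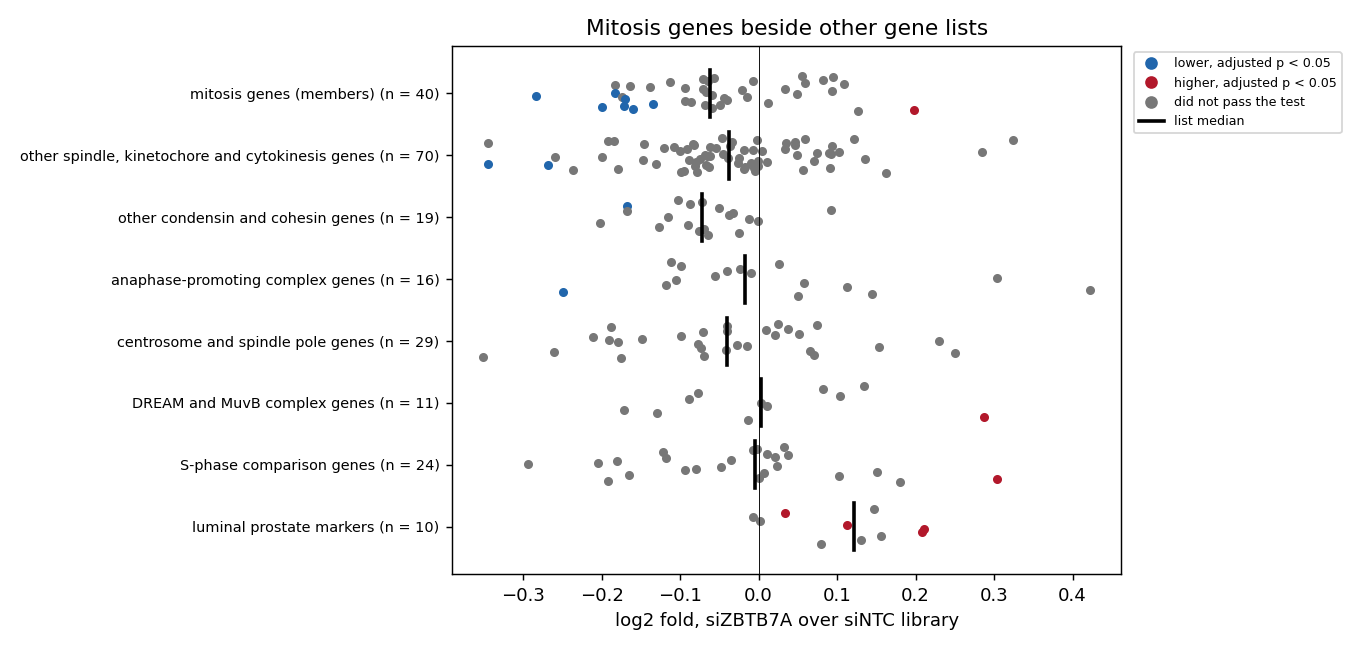
Log2 fold (x axis) of each tested gene in the mitosis list and in 7 comparison lists, coloured by the edgeR call, with list medians as black bars. The median fold is 0.958 for the 40 mitosis genes and 0.997 for the 24 S-phase genes.

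Folds were set beside the promoter letters. The 29 genes with CHR letters had a median fold of 0.956, with 7 called lower, and ranged from 0.822 to 1.08. The 5 without CHR letters (CCNA2, CDC25C, BUB1, AURKB and MYBL2) had a median of 1.02, from 0.881 to 1.09, with 0 called. Split by both motifs instead, the 21 genes with CCAAT and CHR letters had a median of 0.956 with 6 called lower, and the 13 without both had 0.960 with 1 called lower. The ranges overlapped in both splits, and neither difference was tested.

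Per length, levels spanned a wide range in both libraries. TOP2A, UBE2C and CCNB1 were the most abundant, at 111, 109 and 115 CPM per kilobase in siZBTB7A, against 126, 118 and 111 in siNTC. KIF18A was the least abundant, at 5.49 in siZBTB7A and 5.55 in siNTC. Length here means the longest transcript of each gene in the annotation, whether or not VCaP cells make it.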

How the data were processed

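RNA from VCaP cells was measured by stranded RNA-seq in 2 tables for siZBTB7A and 2 for siNTC. The authors deposited whole-number read counts per gene, unstranded and for each strand. The submitters' processing notes name STAR 2.4.2a, hg19 and GRCh37; no annotation release is named there. Counts in column 4 were used, since they exceeded the other strand 24.9-fold or more. Rows that name no gene held 50.8% to 51.2% of reads and were left out.

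Computed here: low counts were filtered with edgeR's filterByExpr, scaled by TMM and tested by robust quasi-likelihood in edgeR 4.0.16 (R 4.3.3) on all 4 tables, with Benjamini-Hochberg adjustment over 12848 genes. Folds of summed tables carry exact Clopper-Pearson 95% intervals, which cover counting error only; tables held 5556061 to 5927656 gene reads. Symbols, lengths and GC came from GENCODE 29 (GRCh38), for names and transcript properties only; promoters came from RefSeq. Named are ZBTB7A, all 40 mitosis genes, and up to 4 called genes with the smallest p in each other division list, with values per table for called genes and a few named regulators. Marker genes other than LUM are given as totals. The genes and lists were chosen with earlier results of these data known. Alternatives were size factors, DESeq2 1.42.0, limma-voom (limma 3.58.1), filters, strand, gene class, mitochondrial genes, table left out, replicate block, transcript length and a length and GC correction.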

Additional observations from a re-analysis of the deposited data

Results flagged for a closer look

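Reads at no annotated exon of the counted strand enter no comparison above. They took 23.149% of table reads in siZBTB7A (23.132% to 23.166%) and 20.594% in siNTC (20.578% to 20.611%), with exact 95% intervals for counting error. This difference was picked out as a signal outside the gene counts that was above the control level, in 1 library per group. Multimapping reads went the other way, at 22.3% and 22.2% in the siZBTB7A tables, against 24.5% and 24.4% in the siNTC tables. All rows that name no gene together held 51.2% in both siZBTB7A tables, against 50.9% and 50.8% in the siNTC tables.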

How the results depend on the processing

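The median log2 fold of the 40 mitosis genes stayed negative under every alternative run, from -0.08 to -0.05. With DESeq2, 85 genes and 1 mitosis gene were called. Its adjusted p was missing for 11707 genes, 28 of the 40 mitosis genes and 2 of the 8 called ones. These 28 were the mitosis genes with the fewest summed reads, KIF11 and FOXM1 among them. Why the other calls were lost was not tested. The length and GC correction left 352 genes and 4 mitosis genes called. Leaving out 1 table in turn left 303 to 373 genes and 4 to 5 mitosis genes called, on fewer reads. At 1.2-fold in place of 1.1-fold, 2599 genes and 1 mitosis gene lay beyond, against 5667 and 11. Across the 40 mitosis genes the correlation of fold with length was 0.16 with median transcript lengths, against -0.46 with the longest. The cause was not tested. The replicate block gave 654 genes and 8 mitosis genes; same-numbered tables did not deviate together (correlation -0.01 over 5462 genes), so the numbers do not pair them. Size factors (650), limma-voom (648), a 1 CPM filter (650), unstranded counts (647), protein-coding genes only (596) and leaving out mitochondrial genes (639) kept the count near the 639 called and 8 mitosis genes called; with no filter, 502 genes and 7 mitosis genes were, and MKI67 did not pass (edgeR adjusted p = 0.0673). With 1 library per group, no alternative measures the spread between cultures.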
